A study of Mus musculus with 24 samples.

Results

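The genes described here are 32 genes of protein folding in the endoplasmic reticulum (ER) and of the unfolded protein response (UPR), taken by symbol from a count table of 55487 mouse genes. They comprise 11 chaperones and co-chaperones, 5 thiol enzymes, 9 genes of ER-associated degradation (ERAD), 5 sensors and transcription factors and 2 subunits of the translocon. Poly(A) mRNA was sequenced from mouse embryonic fibroblasts (MEFs), which were wild-type (WT) or labelled AMPK KO. The study's methods describe the AMPK KO cells as prkaa1 prkaa2 double knockouts, without either catalytic subunit of AMP-activated protein kinase, and each genotype stands for a separately derived cell line. Either line received DMSO as vehicle, the AMPK activator MK-8722 or torin1, which blocks the kinase MTOR. This made 6 groups with 4 libraries in each, 24 in total. The labels give no dose and no duration for these treatments.

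Secretory and membrane proteins enter the ER through the Sec61 channel, fold there with the help of chaperones and disulfide-forming enzymes, and are sent to the proteasome by ERAD when folding fails. When unfolded proteins accumulate, the ER membrane sensors IRE1 (Ern1), PERK (Eif2ak3) and ATF6 start the UPR, in which IRE1 splices the Xbp1 mRNA, ATF6 is cut to release a transcription factor, and PERK slows translation and favours ATF4. XBP1 and ATF6 then raise the transcription of chaperone and ERAD genes, and fibroblasts, which secrete collagen and fibronectin, depend on this machinery for their output.

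The libraries held 26900240 to 34192685 estimated counts each. Of the 32 genes, 31 passed the filter on low counts. The exception was Derl3, a derlin that is abundant in professional secretory cells, which had 0 counts in 19 libraries and at most 2 in the others. Counts of Prkaa1 ranged over 71.3 to 84.5 CPM (counts scaled to library size) in WT libraries and 65.6 to 82.5 CPM in AMPK KO libraries, and those of Prkaa2 over 3.22 to 9.01 and 2.34 to 5.71 CPM. Both targeted transcripts were thus present under both labels. A gene-level count cannot reveal a deleted exon, so it does not check the label, and the genotype is given as labelled throughout. Of 9 fibroblast markers, 7 were above 1 CPM in every library, with Fn1 the most abundant, while Thy1 (0.12 to 2.28 CPM) and Pdgfra (0.133 to 6.49 CPM) went below it. With DMSO, Col1a2 averaged 2500 CPM for WT and 28.4 CPM for AMPK KO. Summed fibroblast markers spanned 11200 to 17300 CPM over WT libraries, against 4890 to 6950 CPM over AMPK KO libraries. Summed markers of epithelial, endothelial, haematopoietic and muscle cells did not exceed 8.6 CPM in any library, and Adgre1 was at 0 in all of them. The plasma cell list summed to 35.1 to 110 CPM, nearly all of it Sdc1, which fibroblasts express too. WT cells were at passage 12 to 15 and AMPK KO cells at passage 16 to 19, so passage, line and genotype cannot be told apart. Each library of a group carried its own passage number, and the labels say no more about how its cells were grown, so p-values measure the spread between passages of 1 line per genotype.

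A known link between these genes is the ER stress response element (ERSE), which ATF6 and XBP1 bind together with the factor NF-Y. ERSE was searched as CCAAT followed by any 9 bases and CCACG, on both strands, in the 250 bases before each RefSeq start site (GRCm38.p6). Of the 32 genes, 27 had a promoter in the table, and Atf6, Derl1, Hyou1, Manf and Sec61a1 had none. The element stood before 9 of the 27, or 33.3%, against 0.13% of 27025 genes and 0.113% of 32851 promoters. These were the chaperone genes Hspa5, Hsp90b1, Calr, Canx, Dnajc3 and Creld2, the thiol enzyme gene Pdia6, and the ERAD genes Syvn1 and Derl3. The related ERSE-II (ATTGG, any base, CCACG) was found for Herpud1 only, 3.7% of the 27 against 0.037% of all genes. Of these genes, the 6 with the highest CPM averaged over all 24 libraries are shown, 4 of them chaperones, because the element sets these promoters apart from those of most genes. Each is read 5′ to 3′ toward its gene, capitals mark the ERSE, and a match that begins with CGTGG lies on the opposite strand.
Hspa5 (chr2:34771995-34772073, plus strand): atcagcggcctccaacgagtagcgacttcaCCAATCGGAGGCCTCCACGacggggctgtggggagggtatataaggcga
Calr (chr8:84847045-84847123, minus strand): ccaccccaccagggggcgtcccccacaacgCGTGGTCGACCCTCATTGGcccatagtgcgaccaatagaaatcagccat
Hsp90b1 (chr10:86705503-86705686, minus strand): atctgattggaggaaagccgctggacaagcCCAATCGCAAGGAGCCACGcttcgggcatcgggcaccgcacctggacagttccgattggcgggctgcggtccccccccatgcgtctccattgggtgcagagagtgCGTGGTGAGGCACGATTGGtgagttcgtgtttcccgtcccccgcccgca
Canx (chr11:50325770-50325848, minus strand): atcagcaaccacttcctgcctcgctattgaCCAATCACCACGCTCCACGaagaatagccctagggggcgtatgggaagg
Pdia6 (chr12:17266461-17266539, plus strand): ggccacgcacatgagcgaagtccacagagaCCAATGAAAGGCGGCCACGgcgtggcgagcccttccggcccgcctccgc
Syvn1 (chr19:6046502-6046575, plus strand): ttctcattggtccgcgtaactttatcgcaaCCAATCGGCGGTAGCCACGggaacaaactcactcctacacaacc

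Hsp90b1 held 2 matches, of which the nearer ended 89 bases before the start site. In Hspa5 the element ended 47 bases before the RefSeq start site and in Syvn1 26 bases before that gene's own. The Hspa5 gene interval given below comes from another annotation and begins upstream of this element. The other motifs were rare among the 27 promoters. The core of the UPR element (TGACG followed by TGG) was in 0 of them, against 0.603% of all genes. The C/EBP-ATF element (TGATG, any base, AA) was in Herpud1 alone, against 3.91% of all genes. The core of the CLEAR motif of TFEB (TCACG followed by TGA, which reads the same on both strands) was in Calr alone, against 0.907% of all genes. A match is a description of the letters in this window and not of binding.

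Levels between genes were compared in TPM, an abundance that is scaled for transcript length. In WT with DMSO the chaperones Calr, Hspa5 and Hsp90b1 were the most abundant, at 1700 ± 170, 1300 ± 108 and 1150 ± 76.7 TPM (SD, n = 4). The thiol enzymes P4hb (protein disulfide isomerase itself) and Pdia3 (its relative that works with calreticulin and calnexin) followed at 1000 ± 41 and 710 ± 21.8 TPM. The translocon subunits Sec61b and Sec61a1 stood at 315 ± 18.4 and 272 ± 11.2 TPM. ERAD genes ranged from 123 ± 12.1 TPM for Herpud1 to 16.7 ± 0.979 TPM for Edem2, and Derl3 was listed at 0 TPM in these 4 libraries. The sensors Eif2ak3 (12.6 ± 0.542 TPM) and Ern1 (9.26 ± 1.01 TPM) were the least abundant of the 31 genes, while the IRE1 target Xbp1 reached 80.6 ± 4.84 TPM. The gap between Hspa5 and Hsp90b1, and that between Edem2 and Dnajb9 (16.3 ± 2.8 TPM), was no wider than the summed SDs of the neighbours.

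**Figure D1:**
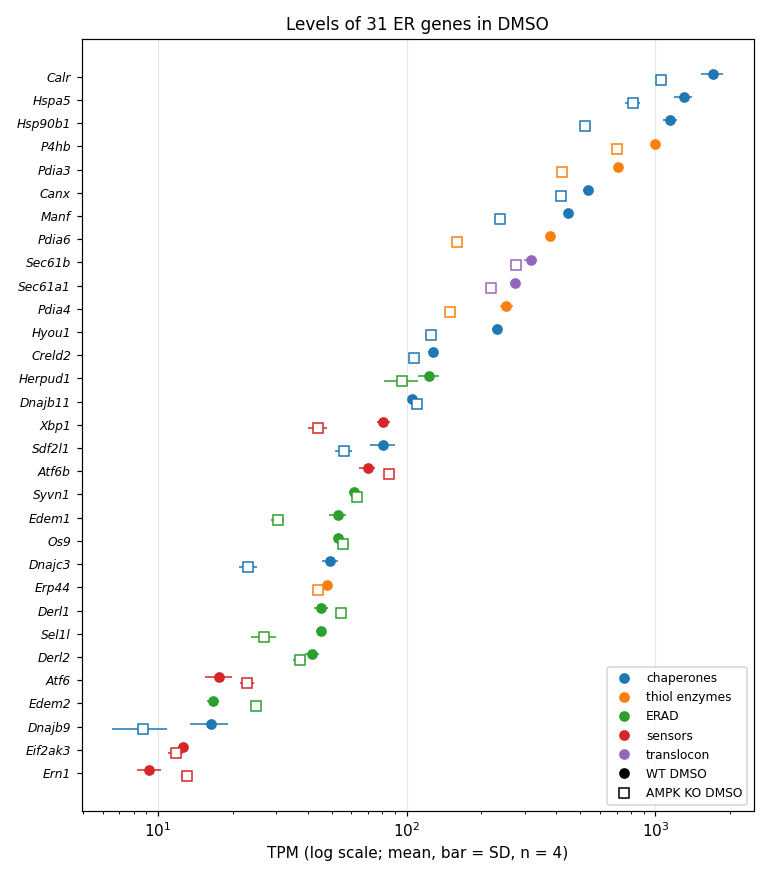
Mean TPM on a log axis for the 31 genes that passed the filter, in WT with DMSO (filled circles) and AMPK KO with DMSO (open squares), coloured by class, with SD bars over 4 libraries. In WT, chaperones and thiol enzymes lead and Eif2ak3 and Ern1 are lowest, with Calr at 1700 and Ern1 at 9.26 TPM. Most chaperones and thiol enzymes lie further left in AMPK KO, where Dnajb9 is lowest, at 8.75 TPM.

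The first comparison asked how inhibition of MTOR changed these transcripts in cells with AMPK. Torin1 lowered most of them. Of the 31 genes tested, 24 fell and 1, Edem2, rose, while 21.1% of all 15828 genes tested fell and 26.6% rose (25 of 31 against 47.6% in either direction). Without overlap between the libraries of both groups, 25 of the 31 were lower and 1 higher, against 24.7% and 27.1% of all genes (26 of 31 against 51.8%). A gene is said to rise or fall where the adjusted p of edgeR's quasi-likelihood test was under 0.05 and the fold change at least 1.2. The median log2 fold change was -0.66 over the 31 genes and 0.04 over all genes tested. Because RNA was measured in bulk, fewer cells expressing a gene and a lower level per cell cannot be told apart here or below. CPM are relative to the other transcripts of a library, so the total amount of mRNA per cell was not measured.

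Chaperones fell the most, with a median log2 fold change of -1.42 and 9 of 11 genes lower. Their summed level dropped from 7660 ± 415 to 3460 ± 236 CPM (SD, n = 4), a ratio of 0.452. Hspa5 (ENSMUSG00000026864, GRCm38 chromosome 2, 34771970 to 34777547) encodes BiP, the central Hsp70 chaperone of the ER, which also binds the sensors. In replicate order it was at 1700, 1530, 1800 and 1670 CPM with DMSO and at 376, 521, 391 and 410 CPM with torin1. The groups were far apart, and Hspa5 fell by 1.98 on the log2 scale (SE 0.079, edgeR adjusted p = 3.3e-15). Sdf2l1 (chromosome 16, 17130138 to 17132383), a partner of the J-domain co-chaperones, was at 52.8, 44.9, 53.6 and 60.3 CPM with DMSO and at 11.6, 15.1, 12.6 and 16.4 CPM with torin1. Again no library overlapped, and the log2 change was -1.92 (SE 0.1, edgeR adjusted p = 2.7e-13). Manf, a small secreted protein that binds BiP, and Creld2, an ER-stress-induced protein, changed by -1.55 and -1.5 on the log2 scale. Hyou1, the nucleotide exchange factor of BiP, and its co-chaperones Dnajb11 and Dnajc3 changed by -1.42, -1.43 and -1.31. Calr, the soluble lectin chaperone, and Hsp90b1, the Hsp90 of the ER, changed by -1.36 and -0.83. Canx, the membrane-bound lectin chaperone, and Dnajb9, another J-domain co-chaperone, did not pass, with -0.2 (edgeR adjusted p = 0.00021, under the fold threshold) and -0.21 (edgeR adjusted p = 0.098). With an offset for transcript length Dnajb9 passed as lower, at -0.57.

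All 5 thiol enzymes fell, with a median of -0.72 and a summed level 0.623 times that with DMSO. Their log2 fold changes were -1.04 for Pdia6, -0.9 for Pdia4, -0.72 for Pdia3, -0.48 for P4hb and -0.27 for Erp44, which retains client proteins through their thiols. The call of Erp44 was lost without WT torin1 replicate 1 or 2, where its value was -0.22 or -0.25. Both translocon genes fell, Sec61b by 0.66 and Sec61a1 by 0.49 on the log2 scale.

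ERAD genes were mixed, with 5 of 8 tested lower and 1 higher. Herpud1 (chromosome 8, 94386438 to 94395377), the membrane scaffold of the ERAD complex, had the largest fall of the 31 genes. It was at 133, 113, 127 and 137 CPM with DMSO and at 27.3, 33.3, 28.8 and 25.2 CPM with torin1. No library overlapped, and the log2 change was -2.15 (SE 0.11, edgeR adjusted p = 1.1e-13). Edem1 (chromosome 6, 108828641 to 108859356) and Edem2 (chromosome 2, 155701677 to 155729475) both encode proteins that direct mannose trimming of misfolded glycoproteins, and they moved apart. Edem1 went from 124, 113, 120 and 120 CPM to 64.6, 71.7, 61.9 and 68.7 CPM, which is -0.84 on the log2 scale (SE 0.046, edgeR adjusted p = 4e-13). Edem2 went from 23.5, 22, 24.4 and 21.2 CPM to 40.2, 36.9, 36.8 and 32.2 CPM, which is 0.68 on the log2 scale (SE 0.06, edgeR adjusted p = 9.9e-10). Every torin1 library was thus below every DMSO library for Edem1 and above for Edem2. Derl1, a channel component, the ubiquitin ligase Syvn1 and its adaptor Sel1l fell by 0.64, 0.58 and 0.57. The lectin Os9 (0.14) and Derl2 (-0.05) did not pass.

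Among sensors and factors 3 of 5 fell. Xbp1 (chromosome 11, 5520659 to 5525893) was at 88, 86.5, 86.9 and 76.6 CPM with DMSO and at 30.1, 39.6, 28.4 and 30.6 CPM with torin1. It fell by 1.39 on the log2 scale (SE 0.088, edgeR adjusted p = 3.3e-12), with no overlap. Atf6b and Atf6, related membrane-bound transcription factors, fell by 0.57 and 0.36. Ern1 (chromosome 11, 106394650 to 106487852) was at 33.5, 30.6, 29.5 and 37.9 CPM with DMSO and at 28.8, 26.2, 29 and 29.7 CPM with torin1. Its groups overlapped and it stayed under the fold threshold, at -0.21 (edgeR adjusted p = 0.0093), although it passed at -0.27 without WT DMSO replicate 3. Eif2ak3 was at -0.12 (edgeR adjusted p = 0.1).

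**Figure D2:**
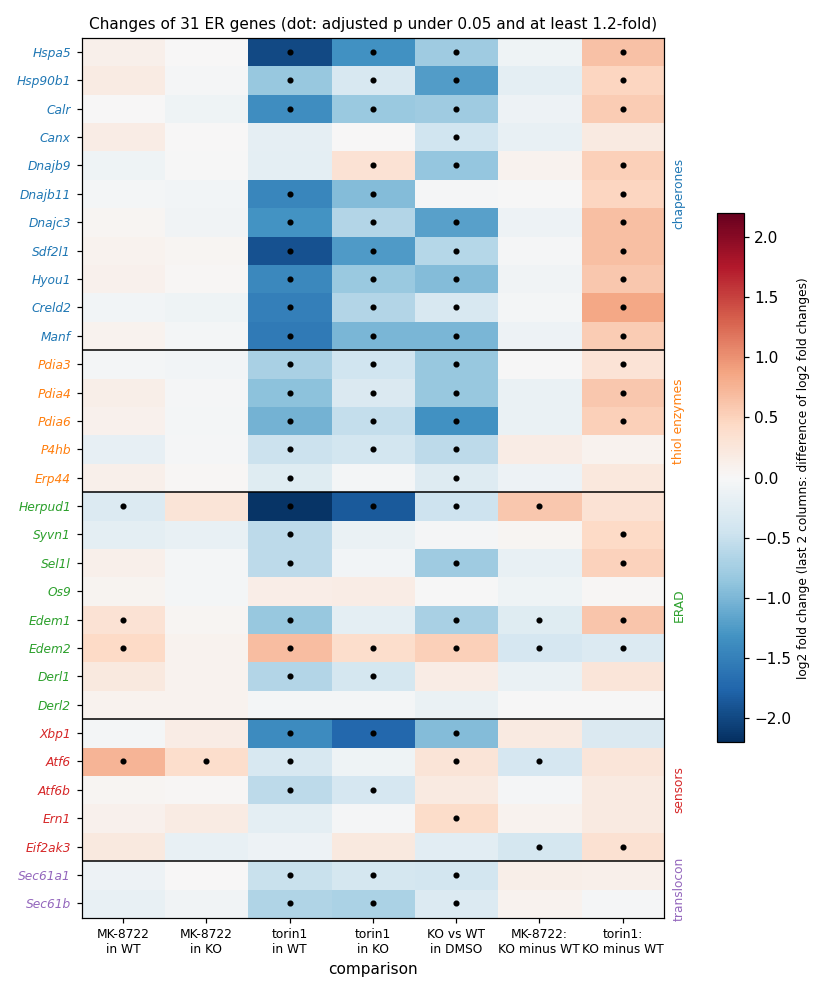
Log2 fold changes of the 31 genes in 7 comparisons, red for higher and blue for lower, with a dot where the gene was called, and the last 2 columns giving the change in AMPK KO minus that in WT. The torin1 columns are blue for most chaperones and thiol enzymes, with Dnajb9 red (0.32) and Canx (0) and Erp44 (-0.04) pale in AMPK KO, and Edem2 is red under torin1 in both genotypes (0.68 and 0.39). The MK-8722 columns are mostly pale, with dots at Atf6 (0.75), Edem2 (0.44), Edem1 (0.32) and Herpud1 (-0.3) in WT and at Atf6 (0.38) in AMPK KO.

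The same comparison in AMPK KO asked how torin1 acted on these genes in cells labelled as lacking AMPK. Of the 31 genes, 19 fell and 2 rose, against 17.6% and 25.9% of all genes tested (21 of 31 against 43.5%). Without overlap, 21 were lower and 3 higher, against 23.7% and 30.1% (24 of 31 against 53.8%). The median was -0.38, against 0.06 over all genes. Chaperones again fell the most, with 9 of 11 lower, a median of -0.81 and a summed level of 4290 ± 82.6 CPM with DMSO and 2710 ± 57.7 CPM with torin1, a ratio of 0.632. Hspa5 was at 1010, 917, 1010 and 930 CPM with DMSO and at 356, 412, 373 and 381 CPM with torin1, which is -1.34 on the log2 scale (SE 0.078, edgeR adjusted p = 2.1e-12). Sdf2l1 was at 34.6, 31.1, 36.1 and 34.7 CPM and at 13.8, 15.5, 14.1 and 14 CPM, a log2 fold change of -1.25. Neither gene overlapped between the groups. Manf changed by -1.01 on the log2 scale, Dnajb11 by -0.95, Hyou1 by -0.82, Calr by -0.81, Creld2 by -0.65, Dnajc3 by -0.64 and Hsp90b1 by -0.35, while Canx did not pass, at 0. Under torin1 the genotypes overlapped for Hspa5, which spanned 376 to 521 CPM for WT and 356 to 412 CPM for AMPK KO.

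Herpud1 and Xbp1 had the largest falls in AMPK KO. Herpud1 went from 102, 81.4, 75.9 and 112 CPM to 26.5, 23, 27.3 and 26.7 CPM, which is -1.84 on the log2 scale (SE 0.11, edgeR adjusted p = 3.1e-12). Xbp1 went from 44.4, 41.9, 46.8 and 42 CPM to 12.6, 14.8, 13.7 and 12.1 CPM, which is -1.72 on the log2 scale (SE 0.094, edgeR adjusted p = 9.4e-13). No torin1 library reached a DMSO library for either gene. Xbp1 was also below every WT torin1 library, where the lowest value was 28.4 CPM. Edem2 rose as in WT, from 33.4, 30.9, 31.9 and 34 CPM to 39.4, 42.3, 45 and 43.6 CPM (log2 fold change 0.39, SE 0.059, edgeR adjusted p = 5.2e-06). Dnajb9 (chromosome 12, 44205559 to 44210326) was the other called rise, from 8.6, 8.9, 11.5 and 11.3 CPM to 13.3, 11.2, 13.7 and 12.2 CPM, with overlapping groups and a log2 change of 0.32 (SE 0.11, edgeR adjusted p = 0.017). That call was lost without AMPK KO DMSO replicate 1 or 2 or AMPK KO torin1 replicate 1, 3 or 4, where the value was 0.24 to 0.29.

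The other classes moved less in AMPK KO. Of the 5 thiol enzymes 4 fell, with Pdia6 at -0.52, Pdia3 at -0.43, P4hb at -0.41 and Pdia4 at -0.31, and Erp44 was at -0.04. Both translocon genes fell, Sec61b by 0.69 and Sec61a1 by 0.38. Of 8 ERAD genes tested only Herpud1 and Derl1 (-0.38) fell, and the class median was -0.1. Syvn1 and Sel1l, which fell in WT, were at -0.14 and -0.06 here, Os9 and Derl2 were at 0.17 and -0.05, and Edem1 at -0.22 stayed under the fold threshold but passed without AMPK KO DMSO replicate 3 or 4 or AMPK KO torin1 replicate 2, at -0.3 to -0.27. Among sensors, Atf6b fell by 0.37, while Atf6 (-0.09), Ern1 (-0.02) and Eif2ak3 (0.21) did not pass.

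**Figure D3:**
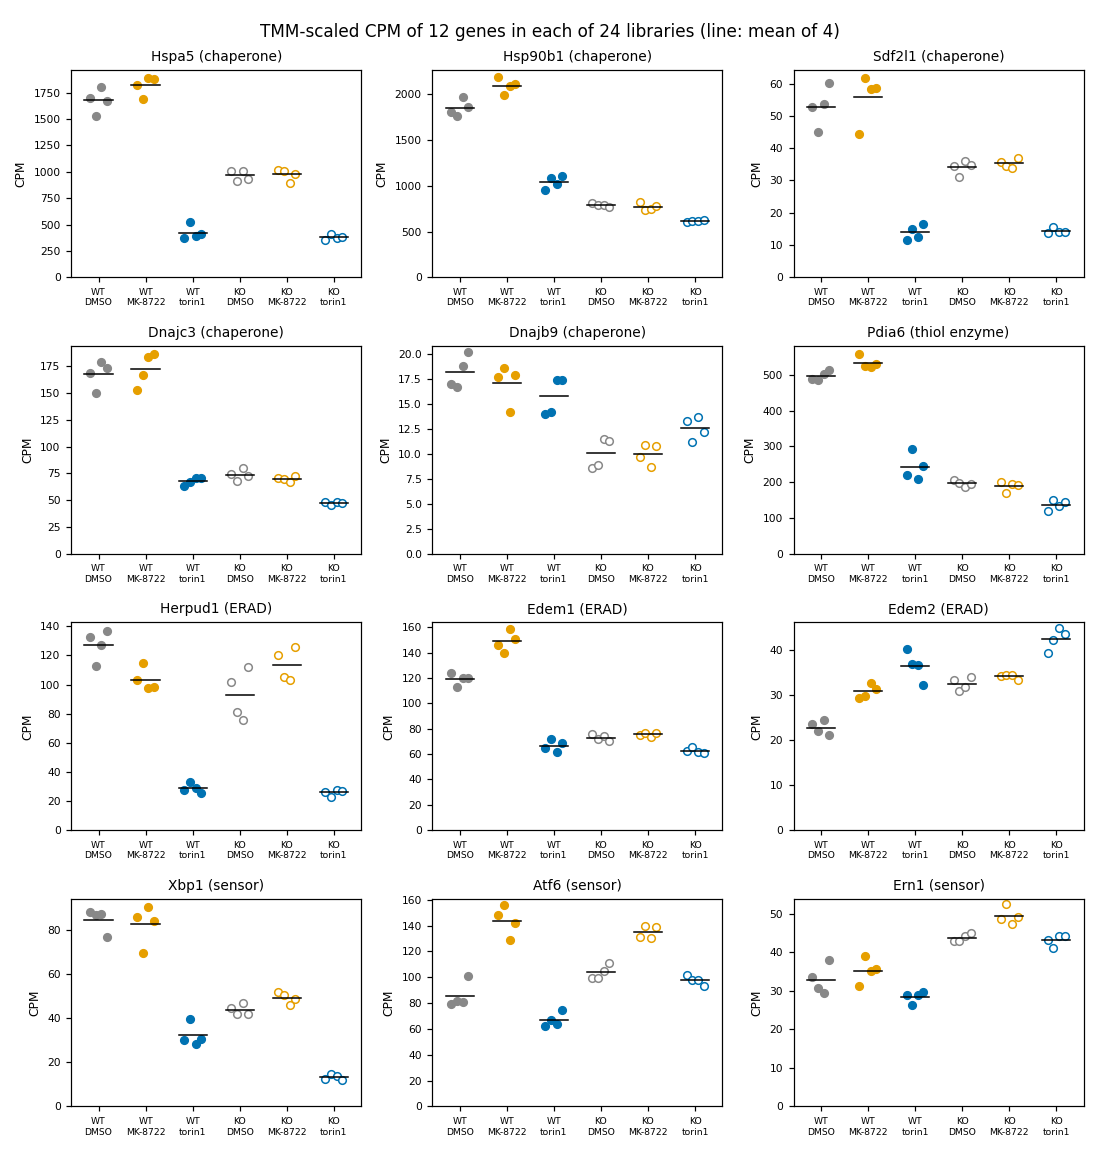
TMM-scaled CPM of 12 genes in all 24 libraries, WT filled and AMPK KO open, grey for DMSO, orange for MK-8722 and blue for torin1, with a line at each mean. Hspa5, Herpud1 and Xbp1 drop under torin1 in both genotypes, Edem2 rises, and Ern1 lies at 42.8 CPM or higher in every AMPK KO library with DMSO and at 37.9 CPM or lower in WT with DMSO.

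Whether the torin1 response differed between genotypes was tested as an interaction, the change in AMPK KO minus the change in WT. Of the 31 genes, 17 had a positive and 1 a negative difference that passed the test, against 4.15% and 2.92% of all genes tested (18 of 31 against 7.07%). Over all genes this split moved with the scaling, from 657 positive of 1119 called to 418 of 994 with library size alone and 308 of 1139 with the compared libraries alone, where the 31 genes had 15 positive and 1 negative, and 14 and 1. The median difference was 0.33, against 0.01 over all genes. For the 15 genes with a positive difference that fell in WT, this was a smaller fall in AMPK KO. The remaining pair were Dnajb9 and Eif2ak3, whose changes in WT did not pass. Chaperones made up most of the calls, with 10 of 11 and a median difference of 0.55. The 3 largest were Creld2 at 0.85 (SE 0.078, edgeR adjusted p = 8.6e-07), Dnajc3 at 0.67 (SE 0.087, edgeR adjusted p = 5.7e-05) and Sdf2l1 at 0.67 (SE 0.14, edgeR adjusted p = 0.0045). Hspa5 differed by 0.64 and Hyou1 by 0.6. Canx was at 0.2, under the fold threshold.

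Thiol enzymes had 3 of 5 called, Pdia4 at 0.59, Pdia6 at 0.52 and Pdia3 at 0.3, and ERAD genes had Edem1 at 0.61, Sel1l at 0.51 and Syvn1 at 0.44. Eif2ak3 was the called sensor, at 0.33, and Atf6 was at 0.27 (edgeR adjusted p = 0.095). Edem2 alone was negative, at -0.3 (SE 0.084, edgeR adjusted p = 0.027), a smaller rise in AMPK KO. Xbp1 had the only other difference under -0.1, at -0.32 (edgeR adjusted p = 0.11), and passed as negative without WT torin1 replicate 3 or AMPK KO torin1 replicate 2, at -0.45 in each case, and at -0.32 with passage as a block within genotype. With that block 20 genes were called, 18 positive and 2 negative, the additions being Xbp1 and Atf6 (0.26). Over all genes tested, 1861 were then called, 987 of them positive. Herpud1 at 0.31 (edgeR adjusted p = 0.21) and the translocon genes, at 0.11 and -0.03, did not pass. Derl1 (0.26) and Erp44 (0.24) were under the fold threshold. Derl1 passed without WT DMSO replicate 2 or 3, WT torin1 replicate 2 or AMPK KO DMSO replicate 1 (0.27 to 0.28), Erp44 without WT DMSO replicate 1 or WT torin1 replicate 4 (0.26 to 0.27), and Atf6 without WT torin1 replicate 4 (0.32). Several calls were thin. Dnajb9 lost its call without any of 11 libraries (0.4 to 0.51), Pdia3 and Eif2ak3 each without any of 6, and Edem2 without WT DMSO replicate 2 or 4 or AMPK KO DMSO or torin1 replicate 1 (-0.28 to -0.26) and also with an offset for transcript length (-0.25) or no filter on low counts (-0.29). For Pdia3 and Eif2ak3 these were WT torin1 replicates 1 and 3, AMPK KO DMSO replicates 3 and 4 and AMPK KO torin1 replicates 2 and 4, with values of 0.18 to 0.22 and 0.23 to 0.28. For Dnajb9 they were WT DMSO replicates 3 and 4, WT torin1 replicates 1, 2 and 3, AMPK KO DMSO replicates 1, 2 and 4 and AMPK KO torin1 replicates 1, 3 and 4.

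**Figure D4:**
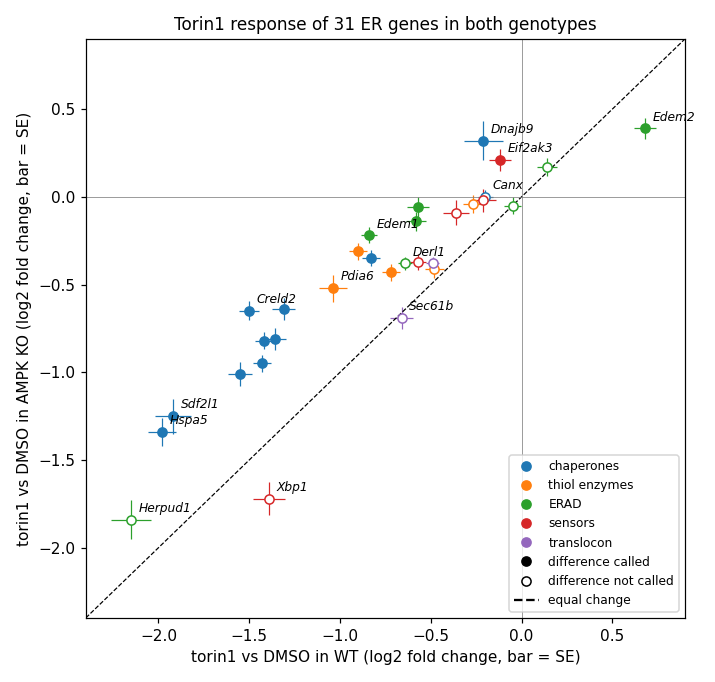
Log2 fold change with torin1 in WT (horizontal) and in AMPK KO (vertical) for the 31 genes, with SE bars, coloured by class and filled where the difference between genotypes was called. Chaperones and thiol enzymes lie above the line of equal change, Hspa5 at -1.98 and -1.34, whereas Xbp1 lies below it at -1.39 and -1.72.

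The genotypes also differed without a drug. The same DMSO libraries enter this contrast and both interactions, so these results are not independent of each other. With DMSO, 21 of the 31 genes were lower and 3 higher in AMPK KO than in WT, against 26% and 30.9% of all genes tested (24 of 31 against 56.9%). The median was -0.46, against 0.02. Chaperones were lower in 10 of 11 cases (median -0.79), and their summed level was 0.56 times that of WT. All 5 thiol enzymes (median -0.83) and both translocon genes (median -0.35) were lower. ERAD genes had 3 of 8 tested lower and 1 higher, with a median of -0.08. Sensors and factors had 1 of 5 lower, the IRE1 target Xbp1, and 2 higher, with a median of 0.19. Their summed level was 0.991 times that of WT. With DMSO the summed fibroblast markers were 11300 to 16100 CPM for WT and 4940 to 5550 CPM for AMPK KO, and the part of this difference and of passage in the result was not tested.

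Pdia6 (chromosome 12, 17266545 to 17284770), a thiol enzyme that also dampens sensor signalling, was at 489, 486, 503 and 515 CPM in WT and at 207, 198, 187 and 195 CPM in AMPK KO. That is -1.34 on the log2 scale (SE 0.078, edgeR adjusted p = 2e-13). Hsp90b1 (chromosome 10, 86690209 to 86705509) was at 1810, 1760, 1970 and 1860 CPM in WT and at 807, 786, 790 and 765 CPM in AMPK KO, which is -1.23 on the log2 scale (SE 0.048, edgeR adjusted p = 1.1e-16). Dnajc3 (chromosome 14, 118937976 to 118981697) was at 169, 150, 179 and 174 CPM in WT and at 74.2, 67.8, 79.8 and 72.9 CPM in AMPK KO, which is -1.19 on the log2 scale (SE 0.061, edgeR adjusted p = 2.5e-14). No AMPK KO library reached a WT library for any of them. Manf (-1.01), Xbp1 (-0.95), Hyou1 (-0.95), Dnajb9 (-0.85), Pdia4 (-0.84) and Pdia3 (-0.83) were also lower. Hspa5 and Sel1l were at -0.79, Calr at -0.78, Edem1 at -0.71, Sdf2l1 at -0.63, P4hb at -0.58, Herpud1 at -0.46, Canx at -0.43, Sec61a1 at -0.41, Creld2 at -0.36, Sec61b at -0.3 and Erp44 at -0.29, all of them called lower. Atf6b (0.19), Derl1 (0.16), Derl2 (-0.14), Dnajb11 (-0.03), Syvn1 (-0.03) and Os9 (-0.01) did not pass.

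The rises were in Edem2, Ern1 and Atf6. Edem2 was at 0.52 (SE 0.061, edgeR adjusted p = 5.8e-08), with every AMPK KO library above every WT library. Ern1 was at 43, 42.8, 44.3 and 45 CPM in AMPK KO, all above the WT values given before, at 0.41 (SE 0.066, edgeR adjusted p = 6.6e-06). Atf6 (chromosome 1, 170704674 to 170867771) was at 79.4, 81.5, 80.7 and 101 CPM in WT and at 99.7, 99.6, 105 and 111 CPM in AMPK KO. Its groups overlapped through WT DMSO replicate 4, and the log2 change was 0.28 (SE 0.071, edgeR adjusted p = 0.0013). Atf6 lost its call without WT DMSO replicate 1, 2 or 3 or AMPK KO DMSO replicate 4, at 0.2 to 0.24. Eif2ak3, at -0.23, passed as lower without WT DMSO replicate 1 or 3, at -0.27.

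The same contrast of genotypes was set out under each drug. With torin1, 16 of the 31 genes were lower in every AMPK KO library than in every WT library and 7 were higher, against 27.7% and 34.1% of all genes tested. With DMSO the same count was 22 lower and 4 higher, against 30.7% and 33.3% (26 of 31 against 64%), and with MK-8722 it was 22 lower and 3 higher, against 30.4% and 33.2%. The chaperone sum in AMPK KO was 0.56 times that in WT with DMSO, 0.511 times with MK-8722 and 0.783 times with torin1. The ERAD sum with DMSO was 732 ± 25.1 CPM for WT and 607 ± 20.3 CPM for AMPK KO (SD, n = 4), and its ratio was 0.817 with MK-8722 and 1.05 with torin1. For sensors and factors the ratios were 0.991, 0.928 and 1.22.

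**Figure D5:**
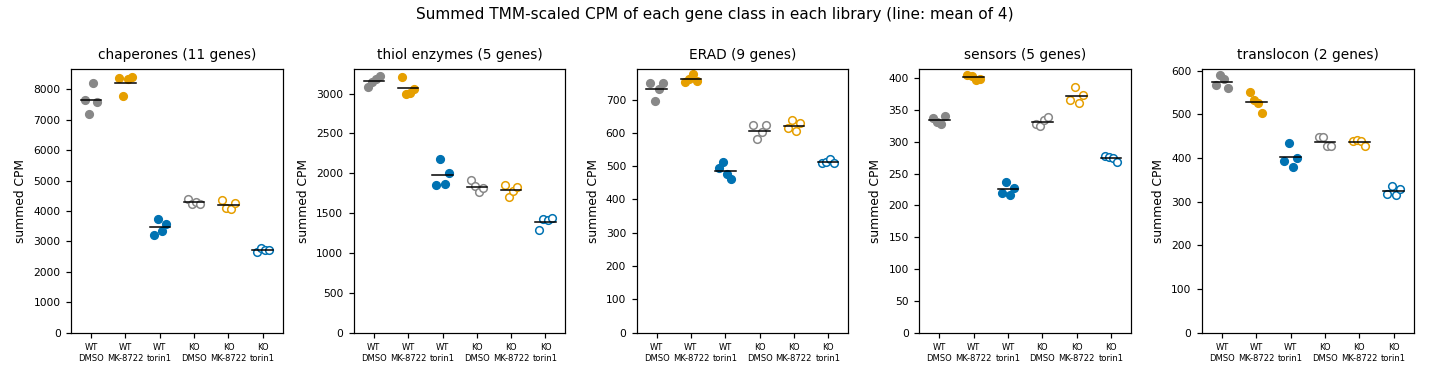
Summed TMM-scaled CPM of each class in each of the 24 libraries, with a line at the mean of 4. The WT and AMPK KO chaperone sums are 7660 and 4290 CPM with DMSO and 3460 and 2710 CPM with torin1, and the sensor sum is highest with MK-8722, at 402 and 373 CPM.

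For the AMPK activator MK-8722 in WT, calls among these genes were about as frequent as among all genes. In WT, 3 of the 31 genes rose and 1 fell, against 10% and 5.66% of all genes tested (4 of 31 against 15.7%), with a median of 0.08 against 0. Without overlap, 9 were higher and 3 lower, against 13.7% and 11.8% (12 of 31 against 25.5%). No chaperone, thiol enzyme or translocon gene passed edgeR's test with the fold threshold. Chaperone changes ranged from -0.09 for Dnajb9 to 0.18 for Hsp90b1, and 9 genes, Hsp90b1 among them, had an adjusted p under 0.05 but a fold change under 1.2. With adjusted p alone 13 of the 31 genes were called, against 4447 of all 15828 genes tested. Atf6 had the largest rise, to 148, 156, 129 and 142 CPM from the DMSO values given before, with no overlap and a log2 change of 0.75 (SE 0.071, edgeR adjusted p = 2.6e-08). Edem2 rose to 29.3, 29.9, 32.8 and 31.4 CPM (0.44, SE 0.061, edgeR adjusted p = 8e-06). Edem1 rose to 146, 140, 159 and 151 CPM (0.32, SE 0.045, edgeR adjusted p = 8.9e-06). Neither gene overlapped with DMSO, although Edem1 was at 0.15 with an offset for transcript length. Herpud1 was at 103, 115, 97.4 and 98.1 CPM, overlapping with DMSO, and its fall of 0.3 on the log2 scale (SE 0.1, edgeR adjusted p = 0.03) lost its call without WT DMSO replicate 1 or 4 or WT MK-8722 replicate 1, 3 or 4, at an edgeR adjusted p of 0.057 to 0.083. Eif2ak3, at 0.21, passed without WT MK-8722 replicate 2, at 0.28. Hspa5 (1820, 1690, 1890 and 1880 CPM), Sdf2l1 (44.3, 61.8, 58.2 and 58.6 CPM), Xbp1 (85.9, 69.6, 90.1 and 83.9 CPM) and Ern1 (31.2, 38.9, 35.1 and 35.7 CPM) overlapped with DMSO.

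In AMPK KO, 1 of the 31 genes passed with MK-8722, against 0.866% of all genes that rose and 0.695% that fell (1.56% in either direction). It was Atf6 again, at 131, 140, 130 and 139 CPM, above every DMSO library, with a log2 change of 0.38 (SE 0.07, edgeR adjusted p = 0.0048). Without overlap, 2 of the 31 were higher and 3 lower, against 6.1% and 5.6% (5 of 31 against 11.7%). Herpud1 was at 120, 105, 103 and 126 CPM (0.29, edgeR adjusted p = 0.13) and passed as higher without AMPK KO DMSO replicate 4, at 0.39, or with passage as a block within genotype, at 0.3, which made 2 calls in each case. Hspa5 was at 1020, 1010, 895 and 982 CPM, Sdf2l1 at 35.7, 34.6, 34 and 36.9 CPM, Xbp1 at 51.8, 50.3, 45.8 and 48.6 CPM and Ern1 at 48.6, 52.5, 47.4 and 49.2 CPM. Of these, only Ern1 stood above every DMSO library, at a log2 fold change of 0.18 (edgeR adjusted p = 0.16).

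The MK-8722 response differed between genotypes for 5 of the 31 genes, 1 positive and 4 negative, against 5.12% and 7.66% of all genes (5 of 31 against 12.8%). Herpud1 was positive at 0.59 (SE 0.14, edgeR adjusted p = 0.006), with changes of -0.3 in WT and 0.29 in AMPK KO. Eif2ak3 (-0.38, SE 0.087, edgeR adjusted p = 0.0039), Edem2 (-0.37, SE 0.085, edgeR adjusted p = 0.0042), Atf6 (-0.37, SE 0.099, edgeR adjusted p = 0.013) and Edem1 (-0.27) were negative. Edem1 lost its call without WT DMSO replicate 2, WT MK-8722 replicate 3 or 4, AMPK KO DMSO replicate 1 or AMPK KO MK-8722 replicate 1 or 3, at -0.26 to -0.23, and was at -0.13 with an offset for transcript length.

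Set directly against each other in WT, torin1 libraries were lower than MK-8722 libraries for 27 of the 31 genes and higher for 0, against 21.2% and 24.5% of all genes tested (27 of 31 against 45.7%). Without overlap, 26 were lower and 0 higher, against 24.2% and 24.7% (26 of 31 against 48.9%). The median was -0.86, against 0.02. By edgeR's quasi-likelihood test at an unadjusted p under 0.05, only Edem2 of the 31 was higher, at 0.24 and under the fold threshold, and DESeq2 called 0 genes higher as well. Hspa5 (-2.1, SE 0.079, edgeR adjusted p = 1.4e-15), Sdf2l1 (-2, SE 0.1, edgeR adjusted p = 1.9e-13) and Herpud1 (-1.85, SE 0.11, edgeR adjusted p = 1.4e-12) had the largest differences. All 5 sensors and factors were lower, with Xbp1 at -1.35 and Atf6 at -1.1, although Ern1 and Eif2ak3 were not called with scaling by library size alone (-0.22 and -0.23). Single libraries decided 3 calls. Ern1 (-0.31) was not called without WT MK-8722 replicate 2, at -0.24, and P4hb (-0.31) not without WT torin1 replicate 3, at -0.25. Edem2 was called without replicate 3 or 4 of either group, at 0.27 to 0.31.

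Genes with an ERSE or ERSE-II were compared with the others as a description. With torin1 in WT, 8 of 9 tested genes with the element fell (median -1.31), and 11 of 17 genes with a promoter and no element (median -0.57). In AMPK KO the medians were -0.64 and -0.22, and for AMPK KO against WT in DMSO -0.78 and -0.3. Outside the 32 genes, 13 tested genes carried it, of which 2 fell and 3 rose with torin1 in WT, with a median of 0, against 23% and 28.1% of all 10829 tested genes with a promoter. With torin1 in AMPK KO 1 of the 13 fell and 6 rose (median 0.24), against 19.2% and 27.6%. For AMPK KO against WT in DMSO 4 were lower and 4 higher (median -0.08), against 27% and 31.9%. Canx, which carries the element, was at -0.2 in WT and 0 in AMPK KO, while Sdf2l1, with none in the window, fell by 1.92 and 1.25. Gene class was not balanced in this comparison, as 6 of the 9 tested members with an element were chaperones. With torin1 in WT these chaperones ranged from -1.98 for Hspa5 to -0.2 for Canx. The chaperones with a promoter and no element were Dnajb9 (-0.21), Dnajb11 (-1.43) and Sdf2l1 (-1.92). The part of gene class in the medians was not tested.

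Xbp1 was measured as several annotated transcripts, which were given no test because it was not checked which of them carry the reading frame that IRE1 creates. The 2129-base transcript ENSMUST00000063084 made up 57.1% ± 1.86 of Xbp1 TPM in WT with DMSO and 62.8% ± 1.64 with torin1, and 60.6% ± 3.33 and 55.8% ± 6.97 in AMPK KO (SD, n = 4). The 1116-base transcript ENSMUST00000239150 made up 31.7% ± 1.49 in WT with DMSO, 30.1% ± 2.15 with MK-8722 and 28.9% ± 2.12 with torin1. In AMPK KO it made up 29.2% ± 3.86, 28.7% ± 2.68 and 33.9% ± 8.06. The 6 groups overlapped in this share, whose widest range was 22.9% to 42% in AMPK KO with torin1, the group with the lowest Xbp1. For the longer transcript the libraries of WT with DMSO (56% to 59.9%) and with torin1 (61.2% to 65%) did not overlap.

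A further 63 genes of the pathway, grouped as folding, degradation, translocation, signalling and PERK output, were all tested. With torin1 33 of the 63 fell and 4 rose in WT, against 21.1% and 26.6% of all genes tested, and 26 fell and 5 rose in AMPK KO, against 17.6% and 25.9%. The list named PERK output, meaning ATF4 and genes that act with or after it in the integrated stress response, fell furthest, with 7 of 8 genes lower in each genotype and medians of -1.54 and -1.48. The activity of PERK itself was not measured. The largest falls of this list were in Trib3, a pseudokinase, at -5.47 in WT and -4.76 in AMPK KO, and in Chac1, which degrades glutathione, at -3.42 and -4.61. Translocation had 11 of 16 genes lower in WT and 10 in AMPK KO. Degradation was mixed, with 5 of 14 lower and 1 higher in WT and 3 lower and 2 higher in AMPK KO. The lectin Erlec1 rose by 0.47 and 0.67, the folding gene Cnpy2 rose by 0.46 in WT, and Uggt2, a glycoprotein folding checkpoint, rose by 0.72 in AMPK KO. Against MK-8722 in WT, 41 were lower with torin1 and 3 higher, against 21.2% and 24.5% of all genes, with Trib3 (-5.32) and Chac1 (-3.3) lowest and Uggt2 (0.42) and Erlec1 (0.3) highest.

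With MK-8722, 11 of the 63 rose in WT, against 10% of all genes, led by Ddit3, the stress factor CHOP, at 1.14 and Spcs3, a signal peptidase subunit, at 0.81. For Ddit3 only the first of 2 gene records under this symbol, ENSMUSG00000025408, was used. In AMPK KO 3 rose, against 0.866% of all genes, all of them from the list named PERK output, with Chac1 at 0.66 and Atf3 at 0.56. Between genotypes in DMSO 36 were lower and 5 higher in AMPK KO, against 26% and 30.9% of all genes. The oxidase Ero1lb (-1.64) and Uggt2 (-1.27) were lowest, and Tmbim6 (0.54) and Chac1 (0.45) highest. The torin1 response differed for 11 of the 63, against 7.07% of all genes, 10 of them positive, with Ero1lb at 0.81 and Fkbp2 at 0.54, and Chac1 negative at -1.19. The MK-8722 response differed for 12, against 12.8% of all genes, of which Chac1 (0.78) and Atf3 (0.56) were the most positive and Spcs3 (-0.79) and Ero1lb (-0.75) the most negative.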

How the data were processed

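Poly(A) mRNA libraries of MEFs were assigned to 6 groups of 4 by their labels for genotype and treatment. Per the labels and the study's methods, the authors aligned paired reads to GRCm38 with STAR in the nf-core/rnaseq workflow, estimated abundance with Salmon, and gave options for molecular identifiers. The deposited gene table holds estimated counts, not normalized and not all whole, and a deposited table per library lists each transcript's TPM, length and estimated count. Handling of strand and of molecular identifiers was not tested, and genes that overlap others, such as Manf, Derl2, Pdia3, Pdia6, Hsp90b1 and Syvn1, may share reads with them.

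Estimated counts were rounded and filtered with filterByExpr, which left 15828 genes holding 99.96% of counts. Libraries were scaled by TMM, and 6 group means were fitted to all 24 libraries with edgeR 4.0.16 under R 4.3.3 (common biological coefficient of variation 0.079). Tests were two-sided quasi-likelihood tests of 8 contrasts, with p adjusted by Benjamini-Hochberg over all genes tested. A call needed both an adjusted p under 0.05 and a change of 1.2-fold or more, the thresholds of the study. All libraries carried the same batch label, so no batch was removed here, whereas the study's methods report removing a batch effect with limma. The procedure was tested on simulated counts. CPM are TMM-scaled, and TPM was summed per gene. Alternatives included DESeq2 1.42.0 and other scalings, filters and blocks.

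The 32 genes, the 63 further genes, the motifs and the naming rule were chosen with earlier results of these data known. By that rule all 32 genes are named, the 3 largest called rises and falls of each comparison are given in full, those genes and Hspa5, Sdf2l1, Herpud1, Xbp1 and Ern1 are given per library, and of the 63 genes the 2 largest called rises and falls with a mean of at least 5 CPM are named. Canx and Sdf2l1 in the paragraph on the element were picked after their values were seen. Positions are from GENCODE (GRCm38) and promoters from RefSeq (GRCm38.p6). Between replicates of a group no pair of libraries agreed within sampling noise. In the labels, replicate numbers recur in every group, but same-numbered libraries of different groups did not deviate together (median correlation of deviations 0.02 over 60 pairs, above 0.1 in 5), so no pairing by replicate number was used. The same passages recurred in every treatment group of a genotype, and libraries of the same passage deviated together in 15 of 24 pairs (median 0.13). The main tests had no passage term. With passage as a block within genotype, calls over all genes went from 247 to 729 for MK-8722 in AMPK KO. For the torin1 interaction they went from 1119 to 1861.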

Additional observations from a re-analysis of the deposited data

Results flagged for a closer look

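In 186 gene and group combinations of 4 libraries, 1 library stood apart from the other 3 by Dixon's ratio in 7, while chance flags about 1 in 20 groups. Atf6 in WT DMSO replicate 4 was at 101 CPM, with the others at 79.4 to 81.5, and Xbp1 in the same library was at 76.6 CPM, with the others at 86.5 to 88. Calr and Eif2ak3 were low in WT MK-8722 replicate 2, at 1830 CPM against 2090 to 2110 and at 34.4 CPM against 42.1 to 43.6. Derl1 was at 53.8 CPM in WT torin1 replicate 3 (others 55.5 to 55.8), Erp44 at 62.7 CPM in WT DMSO replicate 1 (others 67.3 to 67.9) and Sel1l at 73.7 CPM in AMPK KO torin1 replicate 4 (others 76 to 76.1).

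The response to torin1 differed between genotypes, tested as the log2 fold change in AMPK KO minus that in WT, for 18 genes. The differences were 0.64 for Hspa5, 0.47 for Hsp90b1, 0.55 for Calr, 0.53 for Dnajb9, 0.48 for Dnajb11, 0.67 for Dnajc3, 0.67 for Sdf2l1, 0.6 for Hyou1, 0.85 for Creld2 and 0.55 for Manf among chaperones. They were 0.3 for Pdia3, 0.59 for Pdia4 and 0.52 for Pdia6 among thiol enzymes. In ERAD they were 0.44 for Syvn1, 0.51 for Sel1l, 0.61 for Edem1 and -0.3 for Edem2, and among sensors 0.33 for Eif2ak3. The response to MK-8722 differed for Herpud1 (0.59), Edem1 (-0.27), Edem2 (-0.37), Atf6 (-0.37) and Eif2ak3 (-0.38).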

How the results depend on the processing

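Over the 31 genes and 8 contrasts no fold change that was called reversed under any alternative. Of the single-gene results, 5712 kept their side of the threshold, 173 fell below it and 67 rose above it. The number of called genes moved by more than 1.5 times only as follows. With MK-8722 in WT it was 4, and 2 with an offset for transcript length, 13 with adjusted p alone, 1 with a fold change of at least 1.5 and 2 with a test against a fold change of 1.2. Of all 15828 genes tested, 2483 were called in the main fit, and 2313, 4447, 833 and 843 under these settings. With MK-8722 in AMPK KO it was 1, and 2 with passage as a block within genotype, 0 with a fold change of at least 1.5 and 0 with a test against 1.2. Of all genes tested, 247 were called here in the main fit, and 729, 64 and 8 under these settings. A fold change of at least 1.5 left 11 of 21 calls for torin1 in AMPK KO, 14 of 24 for AMPK KO against WT, 1 of 5 for the MK-8722 interaction and 7 of 18 for the torin1 interaction, and a test against 1.2 left 0 and 6 for the interactions. Over all genes, that fold change left 3146 of 6879, 5541 of 9007, 681 of 2023 and 305 of 1119 calls, in the same order. The test against 1.2 left 500 and 101 of all genes for the interactions. Leaving out 1 library at a time gave 3 to 5 calls for MK-8722 in WT, 24 to 26 for torin1 in WT, 1 to 2 for MK-8722 in AMPK KO, 20 to 22 for torin1 in AMPK KO, 23 to 24 for AMPK KO against WT, 26 to 28 for torin1 against MK-8722, and 4 to 5 and 15 to 20 for the interactions. From estimated counts instead of TPM, the share of the shorter Xbp1 transcript was 20% with DMSO, 18.7% with MK-8722 and 17.5% with torin1 in WT, and 18%, 17.9% and 21.8% in AMPK KO. The causes of these changes were not tested. Scaling by library size alone moved the median log2 change of all genes from 0.04 to 0.14 for torin1 in WT, from 0.06 to 0.12 for torin1 in AMPK KO, from 0.02 to 0.15 for AMPK KO against WT and from 0.02 to 0.12 for torin1 against MK-8722, and the calls among the 31 genes were then 1 higher and 22 lower for torin1 in WT, 3 and 18 in AMPK KO, 5 and 18 for AMPK KO against WT and 1 and 24 for torin1 against MK-8722. Over all genes, this scaling gave 5174 higher of 7667 called, 4764 of 7001, 6073 of 9012 and 4741 of 7265, in the same order. It ended the calls of Erp44 (-0.17) and Atf6 (-0.26) for torin1 in WT, of Pdia4 (-0.24) for torin1 in AMPK KO, of Creld2 (-0.22), Erp44 (-0.15) and Sec61b (-0.16) for AMPK KO against WT, of P4hb (-0.21), Ern1 (-0.22) and Eif2ak3 (-0.23) for torin1 against MK-8722, and of Dnajb9 (0.49) and Pdia3 (0.26) for the torin1 interaction. It added calls as higher for Eif2ak3 (0.27) with torin1 in AMPK KO, Derl1 (0.3) and Atf6b (0.33) for AMPK KO against WT, and Edem2 (0.34) for torin1 against MK-8722. With a replicate block the calls numbered 4, 25, 1, 21, 24, 27, 5 and 18, as without it, and the block changed no other count by more than 1.5 times. At these depths Derl3 was not detectable beyond 2 counts in a library.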
